A study of Mus musculus with 7 samples.

Results

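SR proteins and hnRNPs are the 2 large families of RNA-binding proteins that decide which exons of a transcript are kept. SR proteins, named for a tail rich in serine and arginine, mostly bind within exons and recruit the splicing machinery. Many hnRNPs coat new transcripts and block or bend that choice, and several also act in mRNA export, stability and translation. In heart muscle the CELF and muscleblind (MBNL) proteins set the switch from fetal to adult exon use of sarcomere and calcium-handling genes.

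The genes described here were chosen by symbol from the array's gene table: every gene beginning with Hnrnp or Srsf, plus Syncrip, Tra2a, Tra2b, Ptbp1, Celf1, Mbnl1 and Mbnl2. The table gave 33 such genes of 12393 named on the array, with 93 probe sets. They comprise 20 hnRNPs (Syncrip, also called hnRNP Q, and Ptbp1, also called hnRNP I, among them), 11 SR proteins including Tra2a and Tra2b, and the pair Celf1 and Mbnl1. Each gene was read by its probe set of highest mean over all 7 arrays, and all 33 passed the filter on dim signal. Mbnl2 was not listed. Hnrnpa3 was listed only on 4 probe sets shared with a second gene and was not analysed here.

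The arrays (Affymetrix MOE430A, 1 per mouse) hold left ventricle RNA of male mice aged 21 months. The 3 mice M4, M10 and M140 are labelled eNOS knockout, that is, without endothelial nitric oxide synthase, the enzyme of vessel lining encoded by Nos3. The 4 mice M23, M125, M128 and M158 are labelled wild type. The labels concern failing heart function in old knockout males and carry a keyword on exercise, without an exercise state for any mouse. The sources used here name no strain, allele or treatment. Values are given below for knockouts in the order M4, M10, M140 and for wild types in the order M23, M125, M128, M158, unless stated.

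The deposited values were linear intensities that ran from 86.5 to an upper limit of 44145 to 45552. Arrays were hybridized on 4 days: M140 and M128 on day 1, M125 on day 2, M4 and M10 on day 3, M23 and M158 on day 4. The chip lot differed between days and was shared within a day, so that day and chip lot cannot be told apart. The intensity of the 5' control probe set of Gapdh was 4456 on M23 and 15460 on M158, against 23125 to 34559 on the other 5 arrays, while its 3' probe set was at or near the upper limit throughout. Atrial markers also differed: the summed intensity of Myl7, Myl4, Sln, Nppa and Bmp10 ran from 48221 to 72557 on the knockout arrays and from 10008 to 75119 on the wild-type arrays. On M140 most of the sum was Nppa, at the upper limit with 45540, while Myl7, Myl4 and Sln read 407, 1113 and 477 there. Cardiomyocyte markers (9 of 9 listed genes on the array) summed to 366330 to 375667 and 357580 to 378562, several of them at the upper limit. The Nos3 probe set read 1135 to 1413 on the knockout arrays and 791 to 1163 on the wild-type arrays, so the targeted transcript was not lower on arrays labelled knockout. The sources used here do not place that probe set relative to the disrupted part, so it checks no label. In tissue RNA, fewer cells of a type and less RNA per cell cannot be told apart.

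No splicing factor was separated from wild type after adjustment for the number of probe sets tested. By limma with Benjamini-Hochberg adjusted values, 0 of 33 passed an adjusted p of 0.05, as did 0 of 8869 tested genes (0%). At an unadjusted p under 0.05 there were 3 members, which is 9.09% of them against 12.1% of all tested genes. One of these, Syncrip, read higher in the knockout (6.74% of all genes did so), and Hnrnpl and Srsf10 read lower (5.4% of all genes). The median log2 difference (knockout minus wild type, on the log2(intensity + 16) scale) was -0.06 over the members and -0.0027 over all tested genes. The members' median was 0.08 without M23, 0.03 without M158 and 0.01 without M10, so that single arrays turned its sign. Values above 0 were found for 16 members and values below 0 for 17. The members' differences ran from -0.41 to 0.80.

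**Figure D1:**
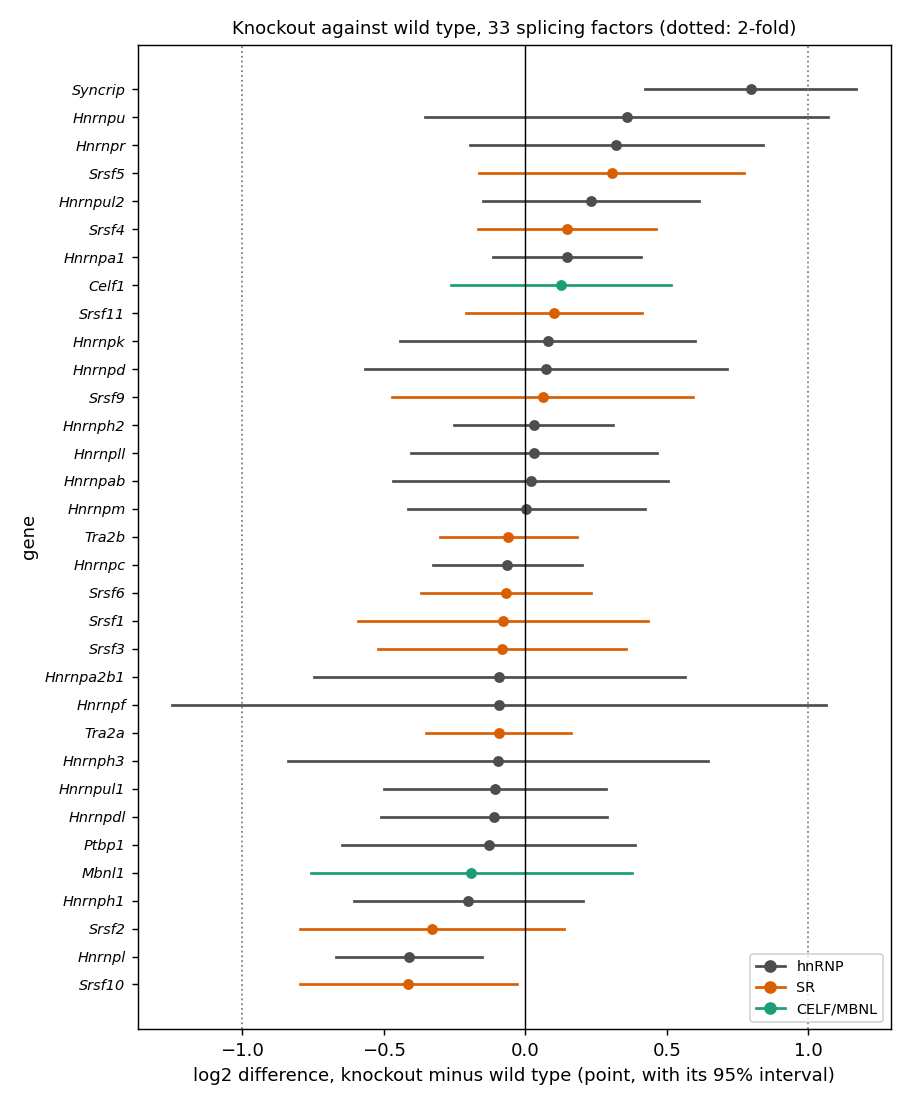
Log2 difference of each of the 33 splicing factors, knockout minus wild type (point), with its 95% interval from limma (line), coloured by family; dotted lines mark a 2-fold difference. Syncrip stands at the top with 0.80, Hnrnpl and Srsf10 at the bottom with -0.41 each, and the interval of every other gene spans 0.

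These values also bound what could have gone unseen. The 95% interval lay wholly within a 2-fold difference for 30 of 33 members (93.6% of all tested genes), and within a 1.5-fold difference for 15 of 33 (72.7% of all tested genes). The 3 members whose interval reached past 2-fold were Syncrip, Hnrnpu and Hnrnpf. The members' standard error had a median of 0.18, against 0.13 over all tested genes, so that smaller shifts were harder to detect among them.

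Syncrip encodes a cytoplasmic and nuclear hnRNP that acts on mRNA stability and translation as well as splicing. Its probe set 1422768_at read 893, 663 and 919 in the knockouts. In the wild types it read 605, 414, 434 and 424. The groups did not overlap, although knockout M10 lay close to wild-type M23. On M125, M128 and M158 the values lay within the range of a probe set too dim to be tested (1418526_at of Srsf10, 389 to 531). The filter, which asks for 3 arrays, was therefore met with the help of the higher knockout arrays. The separation and the p-values of this probe set carry that selection. Knockouts averaged 825 ± 141 (SD, n = 3) and wild types 469 ± 90.6 (SD, n = 4). On the log2 scale the knockouts were higher by 0.80 ± 0.16 (SE; limma adjusted p = 0.186, unadjusted p = 0.00117). The exact two-sided permutation p was 0.0571, where 0.0286 is the smallest that 3 against 4 arrays allow. Knockout M140 exceeded wild-type M128, of the same day, by 1.05. Another tested probe set of the gene, 1426402_at, differed by 0.16 ± 0.16 (SE; unadjusted p = 0.357 by limma), and the remaining 2 were too dim to be tested.

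Hnrnpl binds CA-rich stretches of RNA and can silence or enhance nearby exons. Its single probe set, 1424101_at, read 688, 667 and 857 in the knockouts against 939, 1006, 886 and 1097 in the wild types. The groups did not overlap, but M140 and M128, both of day 1, lay next to each other and differed by only -0.047. Averages were 737 ± 104 (SD, n = 3) in knockouts and 982 ± 91.3 (SD, n = 4) in wild types. The log2 difference came to -0.41 ± 0.11 (SE; limma adjusted p = 0.263, unadjusted p = 0.00646; exact permutation p = 0.0286).

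Srsf10 is an SR protein known as a splicing repressor when it loses its phosphates, as after heat shock. On 1449121_at the knockouts read 871, 909 and 972. The wild types read 1291, 1019, 1648 and 1036. The knockout values were the lowest 3, yet M125 and M158 stood only just above them, and M128 was well above the rest. Its average was 917 ± 51.1 (SD, n = 3) in knockouts and 1249 ± 294 (SD, n = 4) in wild types, which is -0.41 ± 0.17 on the log2 scale (SE; limma adjusted p = 0.398, unadjusted p = 0.0380; exact permutation p = 0.0857). Its other 3 probe sets were too dim to be tested, and on each the averages ran the other way. They were 507, 494 and 500 in knockouts against 452, 383 and 487 in wild types.

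Of the 33 members these 3 were the ones whose groups did not overlap (9.09%, against 10.2% of all tested genes), 1 being higher and 2 lower (5.28% and 4.88% of all tested genes). Without knockout M4, M10 or M140, or without wild-type M23, the count of members lower at an unadjusted p under 0.05 was 1 in place of 2. The share of all tested genes lower was then 2.9%, 4.88%, 4.64% and 5.38% in that order, against 5.4% with all arrays. It was 0 members (4.19% of all tested genes) without knockout M10 and wild-type M125 together, the arrays with the largest atrial sum. With hybridization day as a fixed block, in which the difference rests on M140 and M128 alone, Hnrnpl differed by -0.047, and an unadjusted p under 0.05 was found for 7 members on the higher side and 3 on the lower side (8.64% and 7.32% of all tested genes).

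**Figure D2:**
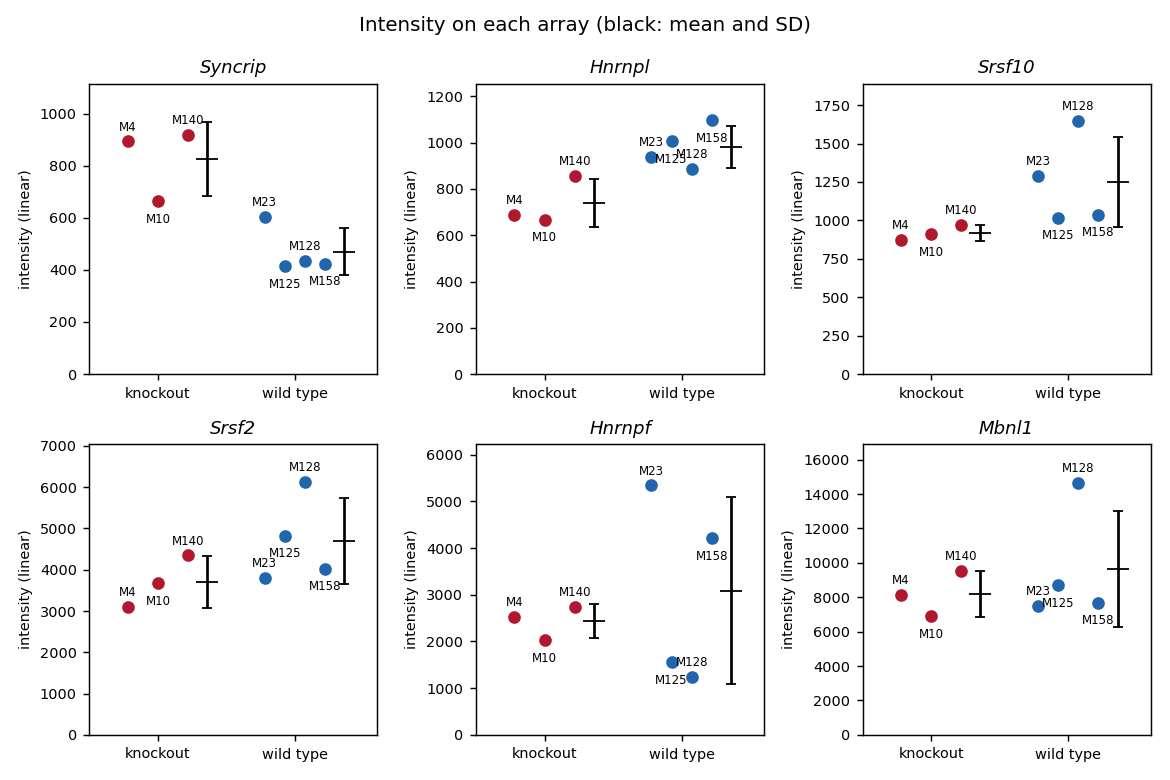
Linear intensity on each array for 6 splicing factors, knockout in red and wild type in blue, with mean and SD in black. Syncrip, Hnrnpl and Srsf10 have groups that do not overlap, while in Hnrnpf wild-type M23 and M158 (5341 and 4215) lie above and M125 and M128 (1560 and 1238) below all 3 knockout arrays.

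The promoters of these 3 genes are shown because their transcripts set the extremes of the comparison. The windows run from 250 bases before to 50 after the annotated start and come from RefSeq's GRCm38.p6 annotation, in which 31 of 33 members had an entry. Capitals mark matches, on either strand, to 6 motifs. They are the GC box with the letters GGGCGG, the CCAAT box, the ETS core with the letters CCGGAAG, the E-box with the letters CACGTG, the TATA box with the letters TATAAA and a core of the cAMP response element with the letters TGACGT. The ETS core, E-box and TATA box were not found in these 3 windows. The windows are chr9:88482348-88482647 on the minus strand for Syncrip, chr7:28810640-28810939 on the plus strand for Hnrnpl and chr4:135855821-135856120 on the plus strand for Srsf10.
Syncrip: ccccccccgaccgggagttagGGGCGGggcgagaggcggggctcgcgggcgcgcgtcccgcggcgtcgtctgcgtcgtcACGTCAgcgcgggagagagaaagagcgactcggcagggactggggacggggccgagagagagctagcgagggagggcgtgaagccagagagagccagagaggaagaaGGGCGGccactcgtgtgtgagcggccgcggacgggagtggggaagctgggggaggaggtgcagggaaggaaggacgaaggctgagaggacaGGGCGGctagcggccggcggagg
Hnrnpl: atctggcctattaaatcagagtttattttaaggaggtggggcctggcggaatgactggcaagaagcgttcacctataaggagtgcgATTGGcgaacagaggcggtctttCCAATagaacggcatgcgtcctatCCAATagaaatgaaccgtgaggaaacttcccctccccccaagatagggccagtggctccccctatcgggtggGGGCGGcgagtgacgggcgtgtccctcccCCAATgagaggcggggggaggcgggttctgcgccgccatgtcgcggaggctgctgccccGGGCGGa
Srsf10: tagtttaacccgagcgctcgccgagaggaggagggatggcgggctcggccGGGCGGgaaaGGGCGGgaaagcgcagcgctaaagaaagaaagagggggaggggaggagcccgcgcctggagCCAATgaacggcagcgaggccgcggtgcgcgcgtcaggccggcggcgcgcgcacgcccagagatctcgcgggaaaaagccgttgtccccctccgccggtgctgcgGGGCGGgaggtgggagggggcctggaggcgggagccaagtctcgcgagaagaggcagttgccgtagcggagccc
Syncrip's window held 3 GC boxes, no CCAAT box and 1 core of the cAMP response element, with 72.3% G or C. Hnrnpl's held 2 GC boxes and 4 CCAAT boxes, with 60% G or C. Srsf10's held 3 GC boxes and 1 CCAAT box, with 71.3% G or C.

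The members' promoters had a higher median content of G and C than all promoters, with a wide range. The 44 windows had a median of 66.8% G or C (39.3% to 78.3%) and 29.5 CpG pairs (2 to 49), against medians of 52.7% and 7 over the 32851 windows of all genes in the RefSeq table. A GC box was found in 81.8% of the members' windows and 35.7% of all windows. A CCAAT box was found in 50% and 37.4%, the ETS core in 20.5% and 8.86%, the E-box in 13.6% and 7.15%, the cAMP response element core in 25% and 7.51%, and the TATA box in 11.4% and 13.6%. These are matches of letters in windows that are rich in G and C.

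Among the SR proteins, none but Srsf10 reached an unadjusted p under 0.05, and their median log2 difference was -0.07 over 11 genes. Srsf2, the nuclear speckle protein also called SC35, read 3096, 3670 and 4346 in the knockouts. It read 3799, 4824, 6131 and 4029 in the wild types, so that M140 lay inside the wild-type range. The log2 difference was -0.33 ± 0.20 (SE; limma adjusted p = 0.586). Srsf5, also called SRp40, owed its difference of 0.31 ± 0.20 (SE; adjusted p = 0.627) to a single array. Knockout M140 read 3392, while M4 and M10 read 1868 and 2117 and the wild types 1849, 1939, 1768 and 2145. Tra2a, which binds GAA-rich exon enhancers, read 510, 522 and 515 in the knockouts against 617, 485, 488 and 633 in the wild types (difference -0.09 ± 0.11, SE). Its partner Tra2b had the tied value 2550 in knockout M10 and wild-type M23, M125 and M158; equal values across arrays are frequent in the deposited table. Srsf1, Srsf3, Srsf4, Srsf6, Srsf9 and Srsf11 differed by -0.08, -0.08, 0.15, -0.07, 0.06 and 0.10, with unadjusted p-values of 0.313 to 0.797 by limma.

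Among the hnRNPs, 11 of 20 read higher and 9 lower, with a median log2 difference of 0.01. Hnrnpr, the closest relative of Syncrip, read 2289, 1905 and 2229 in the knockouts and 2261, 1301, 1334 and 2146 in the wild types. Here M125 and M128 were low, and M23 and M158 lay among the knockout arrays (difference 0.32 ± 0.22, SE; limma adjusted p = 0.646). Hnrnpu, the scaffold attachment factor that ties RNA to chromatin, was also low on M125 and M128, but M23 lay above all 3 knockouts. Knockouts read 7355, 6603 and 6198, and wild types 8271, 3958, 3365 and 6771 (difference 0.36 ± 0.31, SE; adjusted p = 0.722). Hnrnpul2, a relative of Hnrnpu, read 4648, 3757 and 3579 in knockouts and 4098, 2992, 2985 and 3547 in wild types (0.23 ± 0.17, SE). Hnrnpa1, which binds UAGG-like elements and represses exons, read 1448, 1608 and 1304 in knockouts and 1350, 1344, 1135 and 1415 in wild types (0.15 ± 0.11, SE). For Hnrnph1, a reader of G runs, the values were 3100, 3466 and 3440 in knockouts and 4365, 2896, 4509 and 3774 in wild types, a difference of -0.20 ± 0.18 (SE). The groups overlapped for each of these 5 genes.

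The remaining hnRNPs had differences of -0.11 to 0.08, apart from Ptbp1. Hnrnpdl, a relative of Hnrnpd, was the brightest of all members, at 11883 to 18976 over the 7 arrays, and differed by -0.11. Hnrnpul1 also differed by -0.11. Hnrnpc, which binds uridine tracts in new transcripts, differed by -0.06 and Hnrnpk, which binds cytosine-rich stretches, by 0.08. Hnrnph2 and Hnrnpll both differed by 0.03 and Hnrnpm by 0.0038. Hnrnpa2b1, Hnrnph3, Hnrnpf, Hnrnpd and Hnrnpab differed by -0.09, -0.09, -0.09, 0.07 and 0.02. For Hnrnpa2b1, Hnrnph3, Hnrnpf and Hnrnpd the small difference went with wide spread (SE of 0.28 to 0.50). Hnrnpf had a 95% interval of -1.25 to 1.06.

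The muscleblind and CELF pair, which act against each other on many heart exons, had groups that overlapped. Mbnl1 read 8148, 6889 and 9538 in knockouts and 7516, 8701, 14657 and 7693 in wild types, with M128 alone far above the rest. Its log2 difference was -0.19 ± 0.25 (SE; limma adjusted p = 0.830), and 0.030 without M128. Celf1 differed by 0.13 ± 0.17 (SE; adjusted p = 0.839) on its brightest probe set. Ptbp1, which represses exons next to pyrimidine tracts and is low in differentiated muscle, differed by -0.13 ± 0.22 (SE; adjusted p = 0.881).

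The members varied more among the wild-type arrays than among the knockout arrays. The SD of the log2 values over the 4 wild-type arrays had a median of 0.31 over the 33 members and 0.16 over all tested genes. Over the 3 knockout arrays the medians were 0.14 and 0.13. The wild-type and knockout medians were 0.34 and 0.17 for the hnRNPs and 0.21 and 0.10 for the SR proteins. In the related lists described below they were 0.24 and 0.13 for the core spliceosome and 0.20 and 0.08 for SR-related proteins. They were 0.18 and 0.10 for the kinases of SR proteins, and ran the other way for muscle regulators (0.14 and 0.28). Wild-type M23 was the highest of the 7 arrays for 13 of 33 members (39.4%), against 13.2% of all tested genes. Wild-type M128 was the lowest for 13 (39.4%), against 22.2% of all tested genes, and M125 for 9 (27.3%), against 11.5%. M128 was the highest array for 8 members (24.2%, against 19.6% of all tested genes). The members' median deviation from their own means was 0.25 on M23, -0.14 on M125, -0.13 on M128 and -0.02 on M158. It lay between -0.03 and -0.01 on the knockout arrays, and over all tested genes it lay between -0.01 and 0.01 on every array.

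**Figure D3:**
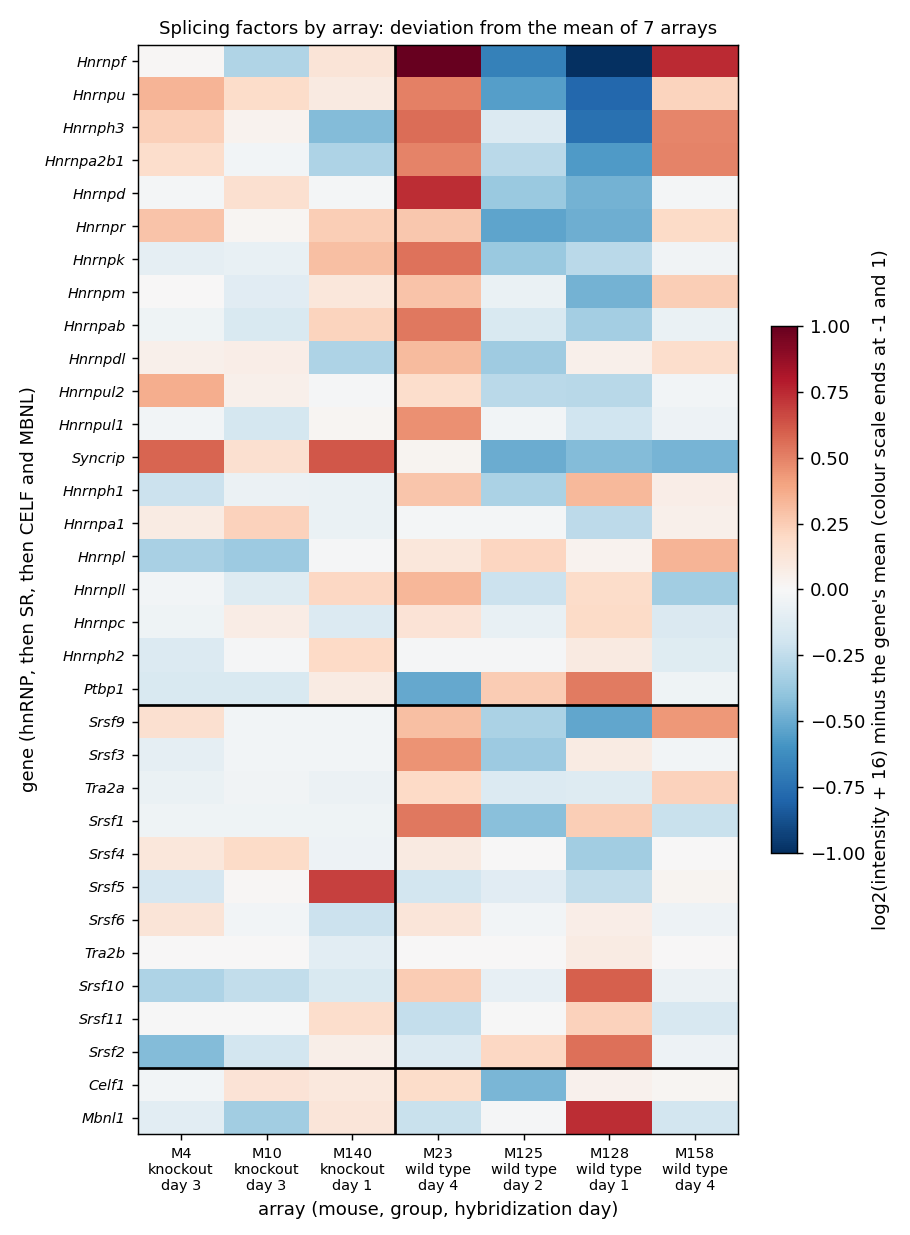
Deviation of each splicing factor from its own mean over 7 arrays (log2 scale, red above and blue below), with knockout arrays on the left and wild-type arrays on the right; genes are ordered within each family by the difference between wild-type arrays of day 4 and the other wild-type arrays. The upper hnRNP rows, placed there by that ordering, are red on M23 and blue on M125 and M128. On M158 most of them are red, but Hnrnpd, Hnrnpk and Hnrnpab lie slightly below their means (-0.02, -0.04 and -0.07). Hnrnpf, on its chosen probe set, is the most extreme at 5341, 4215, 1560 and 1238.

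The wild-type arrays were also compared by hybridization day. The wild-type arrays of day 4, M23 and M158, had a mean log2 level above that of M125 and M128 for 25 of 33 members (75.8%), against 46.8% of all tested genes. The difference was over 0.5 for 9 members (27.3%), against 4.76% of all tested genes, and 8 of these 9 were hnRNPs. Its median was 0.37 over the hnRNPs, 0.10 over the SR proteins and -0.02 over all tested genes. Of the related lists described below, SR-related proteins had a median of 0.20, with 9 of 9 above 0. The median was 0.09 for the core spliceosome, 0.0038 for the kinases of SR proteins and -0.10 for the import and dephosphorylation genes. The genes named in the rest of this paragraph were picked out after their values were seen. Hnrnpf, a reader of G runs, read 5341 and 4215 on M23 and M158 but 1560 and 1238 on M125 and M128, with 2523, 2028 and 2737 in the knockouts. This was its chosen probe set, with a log2 difference of 1.76 between these pairs of wild-type arrays. Its 1437099_x_at differed by 0.95, but 1450963_at and 1423382_a_at by only 0.37 and 0.12. Hnrnpa2b1, which binds and sorts transcripts in nucleus and cytoplasm, read 11193 and 11222 on M23 and M158 and 6604 and 5373 on M125 and M128, with 9003, 7804 and 6420 in the knockouts. Hnrnph3 read 1568 and 1493 against 959 and 623, and Hnrnpd, a factor of mRNA decay, 3856 and 2275 against 1777 and 1652, in the same order of wild-type arrays. A dimmer probe set of Hnrnpab, 1426114_at, read 5868 and 6264 on M23 and M158 and between 1098 and 1911 on the other 5 arrays. Between the same pairs of wild-type arrays it differed by 2.27, and the other tested probe sets of Hnrnpab by 0.13 to 0.47. Mbnl1, Ptbp1 and Srsf2 ran the other way, by -0.57, -0.67 and -0.47.

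The 5' Gapdh intensity was lowest on the same 2 arrays, M23 and M158, and the sheet of M23 carries a comment that 2 processings were combined. The 2 arrays were not alike: 26 of 33 members lay above their own mean of 7 arrays on M23 but 16 on M158, the same count as on M140 and on M128 of day 1. The atrial sum was also lowest there (10008 and 11329), against 75119 and 25090 on M125 and M128. On knockout M140 the atrial sum was 48221, most of it Nppa, while Myl7 read 407, against 356 and 399 on M23 and M158. The part of RNA quality, day, chip lot, atrial tissue or mouse in this pattern was not tested. Day 4 held wild-type mice alone, so that these cannot be told apart.

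**Figure D4:**
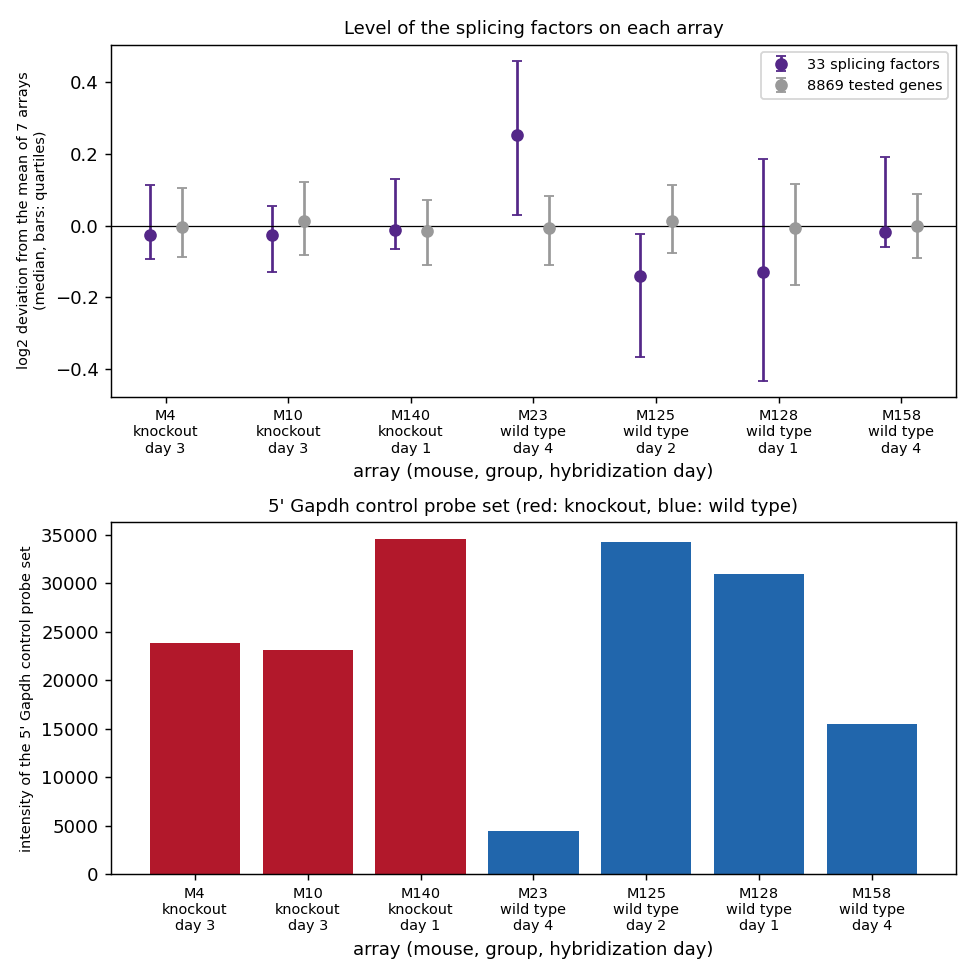
Upper panel, median and quartiles of the log2 deviation from the mean of 7 arrays for the 33 splicing factors (purple) and all 8869 tested genes (grey) on each array; lower panel, linear intensity of the 5' Gapdh control probe set. The splicing factors stand highest on wild-type M23 (median 0.25), the array with the lowest 5' Gapdh intensity (4456).

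The comparison of knockout and wild type depended on M23 and M158. Leaving them out kept M125 and M128 as the wild types, the arrays with the lowest member medians (-0.14 and -0.13). For members low on M125 and M128, higher knockout values then followed largely from that choice of arrays. Without M23 and M158 (3 knockout and 2 wild-type arrays) 9 of 32 tested members had an unadjusted p under 0.05 by limma, 6 higher and 3 lower, against 7.32% and 5.7% of all tested genes. The members' median difference was then 0.16, and 0 passed an adjusted p of 0.05. Hnrnpu differed by 0.87 ± 0.16, Hnrnpf by 0.79 ± 0.19, Hnrnpr by 0.69 ± 0.13, Hnrnpd by 0.47 ± 0.13, Srsf9 by 0.45 ± 0.12 and Syncrip by 0.92 ± 0.15 (SE; adjusted p of 0.233 to 0.289). On the lower side Srsf2 differed by -0.57, Ptbp1 by -0.46 and Hnrnpl by -0.36 (adjusted p of 0.299 to 0.375). Within day 1, M140 minus M128 had a median of 0.26 over the hnRNPs, with 15 of 20 above 0, and of -0.11 over the SR proteins, with 4 of 11 above 0; over all tested genes it was -0.0029. M140 and M128 are 1 mouse each, which allows no test of that difference by itself.

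Probe sets of the same gene did not always move alike. Of the members, 13 had 1 tested probe set and 20 had several; in 10 of these 20 all probe sets differed in the same direction and in 10 the directions were mixed. Of 76 tested probe sets, 8 had an unadjusted p under 0.05, with 4 in each direction, which is 10.5% against 11.8% of all tested probe sets, and 0 passed an adjusted p of 0.05 by limma. The 5 of these beside the brightest ones were spread over 4 genes. Hnrnpu's 1450849_at read 1590, 1708 and 1423 in knockouts and 748, 1201, 1079 and 1040 in wild types, with no overlap (difference 0.64 ± 0.16, SE; adjusted p = 0.248). This probe set was lowest on M23, where the brightest probe set of the gene was highest. Hnrnpa2b1's 1433830_at was lower, at 1013, 1137 and 1233 in knockouts against 1576, 1271, 1422 and 1443 in wild types (-0.34 ± 0.11, SE; adjusted p = 0.301). Celf1's 1426408_at differed by -0.56 while its brightest probe set differed by 0.13. Hnrnpf's 1423382_a_at and 1450963_at differed by 0.34 and 0.33, and its 2 other tested probe sets by -0.29 and -0.09. Which transcript form each probe set reads was not analysed here. The chosen probe sets of Hnrnpa1, Hnrnpab, Hnrnpf, Srsf1 and Srsf2 are of the kind that can also bind related transcripts.

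**Figure D5:**
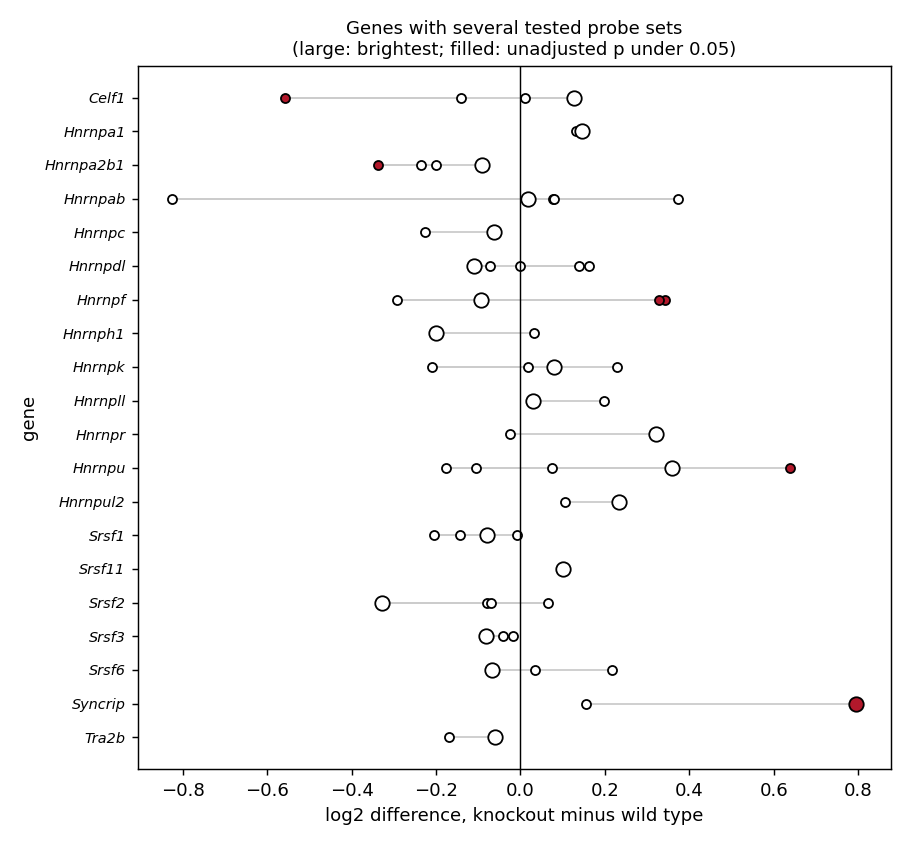
Log2 difference, knockout minus wild type, of every tested probe set of the 20 splicing factors with several; large circles are the brightest probe set of a gene and red fill marks an unadjusted p under 0.05 by limma. Probe sets of Hnrnpab run from -0.82 to 0.37 and those of Hnrnpu from -0.18 to 0.64.

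The rest of the splicing machinery was read from lists of related genes. Of 42 tested genes of the core spliceosome (the small nuclear ribonucleoproteins and their partners), 4 had an unadjusted p under 0.05 (9.52%, against 12.1% of all tested genes), 2 in each direction, with a median log2 difference of 0.04 and 0 past an adjusted p of 0.05. Prpf6 and Sart1, both of the tri-snRNP, differed by 0.52 and 0.50, and Phf5a, of the SF3b complex, by -0.34. Snrpd3, a core Sm protein, differed by -1.04, with 723, 574 and 1510 in knockouts against 2164, 1845, 913 and 2765 in wild types; within day 1 the sign was opposite, at 0.72. The kinases that phosphorylate SR proteins (Clk1, Clk2, Clk3, Clk4, Srpk1, Srpk2, Srpk3, Dyrk1a and Prpf4b) had 0 of 9 at an unadjusted p under 0.05, with differences of -0.49 to 0.12. Of 9 SR-related proteins Pnn, a nuclear speckle protein, was the 1 at that level (883, 848 and 672 in knockouts, 614, 448, 591 and 571 in wild types, difference 0.52 ± 0.13, SE; adjusted p = 0.255). Of 3 tested genes for the import and dephosphorylation of SR proteins, 0 reached it.

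Among these splicing lists, regulators of muscle-specific exons had the largest share of such genes. Of 8 listed, 6 were on the array and 5 were tested, and 4 of these had an unadjusted p under 0.05 by limma (12.1% of all genes), 2 in each direction, with 0 past an adjusted p of 0.05. Rbfox1, a splicing factor of heart, muscle and brain that binds GCAUG, read 368, 520 and 795 in knockouts. In wild types it read 1422, 1859, 1002 and 1507. The groups did not overlap, and the day 1 arrays M140 and M128 lay closest. The value on M4 lay below, and that on M10 within, the range of an untested dim probe set (1418526_at of Srsf10, 389 to 531). The filter was therefore met with the help of the higher wild-type arrays. The separation and p-values of Rbfox1, and its place among the 4 genes, carry that selection. Knockouts averaged 561 ± 217 (SD, n = 3) and wild types 1448 ± 352 (SD, n = 4). The difference was -1.38 ± 0.27 (SE; adjusted p = 0.172), and -0.33 within day 1. Celf2, a relative of Celf1, read 5769, 4814 and 7075 in knockouts and 3957, 4071, 3344 and 3986 in wild types (0.60 ± 0.16, SE; adjusted p = 0.259), also without overlap. Its 2 other tested probe sets differed by 0.29 and 0.21.

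Rbpms, an RNA-binding protein of muscle, differed by 0.75 on 1437161_x_at but by 0.28 and -0.08 on its 2 other tested probe sets. Qk, the quaking protein, read 2475 and 2069 on M4 and M10 but 8788 on M140, against 7008 to 8568 on the wild-type arrays. Its difference of -1.07 on 1429318_a_at was therefore set by M4 and M10, both of day 3, and its other probe sets differed by -0.17 and 0.03. With day as a fixed block 1 of the 5 genes was higher and 0 lower at that p (8.64% and 7.32% of all tested genes). Without M23 and M158 the counts were 1 and 1 (7.32% and 5.7% of all tested genes). They were 1 and 1 as well without knockout M4 (3.26% and 2.9%) or without knockout M10 (6.94% and 4.88%). With each gene's mean over its probe sets they were also 1 and 1 (6.97% and 6.01%). Neat1, the RNA around which paraspeckles form, read 33431, 33122 and 30875 in knockouts against 21103, 16787, 22854 and 25616 in wild types (0.60 ± 0.13, SE; adjusted p = 0.207). Of 9 macrophage markers, 4 read higher on the knockout arrays at an unadjusted p under 0.05 (44.4%, against 6.74% of all tested genes), and their summed intensity ran from 25826 to 31926 in knockouts and from 20017 to 28505 in wild types. Red cell markers (3 of 4 on the array, 1 of them tested) summed to 3395 to 7603 in knockouts and 2391 to 2850 in wild types, without overlap. Most of this sum was the tested gene Alas2, at 6236, 6484 and 2598 in knockouts and 1649 to 2123 in wild types. Of all tested genes, 5.28% were likewise higher in the knockouts without overlap. The fibroblast sum ran from 21106 to 94710 in knockouts and from 27467 to 43472 in wild types. The part of these cell types in the differences was not tested.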

How the data were processed

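The authors deposited linear probe set intensities for 7 arrays; the sources used here name neither software nor scaling. Per the file headers, the experiment sheets (other information, no measurement) gave the chip type, the chip lots and the hybridization days, coded 1 to 4. Of 22690 probe sets, 64 controls were left out, and 20380 of the rest carry 1 gene symbol in the platform's annotation, 691 several (not named) and 1555 none. Intensities were taken as log2(intensity + 16). A probe set was tested if above the 40th percentile of its array on at least 3 arrays (13836 probe sets, 8869 genes). Groups were compared with limma 3.58.1 in R 4.3.3 (lmFit, eBayes with trend, no covariate, two-sided), with Benjamini-Hochberg adjusted p-values (all 13836 probe sets, threshold 0.05), and a gene was represented by its brightest tested probe set. Single values were also compared by exact two-sided permutation over arrays. The fit was also run on simulated data with independent normal noise. These data had no day structure and none of the ties of the deposited values, so the run does not test the fit for them. Array pairs correlated at 0.973 to 0.992, and no 2 arrays were counted as 1 sample. Ties were frequent: 49.9% of probe sets repeat a value across arrays. The small number of arrays limits precision, and p-values measure the spread between them, in which mouse and day are mixed.

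The members, the lists of related genes and the tests were chosen with earlier results of these data known. Values on every array were given for the 6 members with the smallest p in each direction and for those whose groups do not overlap, and related genes were named where among the 2 smallest p under 0.05 of a list in a direction; other named values were picked after they were seen. Alternatives were offsets of 1 and 64, quantile normalization, normexp (offset 50), no filter or the 60th percentile, no trend, array weights, day as a fixed or random block, each gene's mean over its probe sets, probe sets below the upper limit, leaving out each array, M10 with M125, and M23 with M158. A list of further RNA-binding regulators is not reported here.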

Additional observations from a re-analysis of the deposited data

Results flagged for a closer look

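Among 44 sets of 4 wild-type values checked, 3 had 1 array far from the others by Dixon's ratio at the 95% level, where chance gives about 1 in 20. Syncrip read 605 on wild-type M23 and 414 to 434 on the other wild-type arrays. Tra2b read 2695 on wild-type M128 and 2550 on each of the other 3, a tie in the deposited values that makes any gap stand out. Celf2 read 3344 on wild-type M128 and 3957 to 4071 on the others. The knockout group of 3 arrays was not checked in this way.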

How the results depend on the processing

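In 21 alternatives, the count of members past an adjusted p of 0.05 was 2 with array weights (Syncrip and Hnrnpl, limma adjusted p = 0.0244 and 0.0372, while 402 of all genes passed) and 0 in the others. The 1 member higher at an unadjusted p under 0.05 became 0 with the 60th percentile filter, under which Syncrip was not tested, 7 with day as a fixed block and 6 without M23 and M158 (7.87%, 8.64% and 7.32% of all genes). The 2 members lower became 0 without M10 and M125 (4.19% of all genes), 3 with day as a fixed block or without M23 and M158, and ranged from 1 to 3 when single arrays were left out (2.9% to 5.98% of all genes). The members' median difference, -0.06 with all arrays, was 0.16 without M23 and M158, 0.11 with day as a fixed block, 0.04 with day as a random block and 0.0038 with each gene's mean over its probe sets, and ran from -0.06 to 0.08 when single arrays were left out. Of 455 values of 22 named genes, 443 kept direction and side of the threshold, 8 newly passed it (7 with array weights, and Qk at -1.72 without knockout M140) and 4 changed sign. With day as a fixed block Tra2a was at 0.075, Snrpd3 at 0.72 and Qk at 0.33, and Mbnl1 ran from -0.31 to 0.030 when single arrays were left out. The members' level on each array moved by less than the spread between arrays under quantile normalization or the mean of all probe sets, but its size changed. Over these 2 alternatives it ran from 0.16 to 0.27 on M23, against 0.25 in the main setting. On M128 it ran from -0.14 to -0.07, against -0.13, and on M125 from -0.15 to -0.14, against -0.14. No paired analysis was possible because no mouse number occurs in both groups. The causes of these changes were not tested beyond the alternatives' own construction.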
